A study of Mus musculus with 17 samples.

Results

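The genes described here are 9 genes of the choroid plexus epithelium, Ttr, Kl, Folr1, Otx2, Kcne2, Clic6, Aqp1, Enpp2 and Cldn2, measured in RNA-seq libraries of newborn mouse forebrain. They were found by matching the Ensembl identifiers of the deposited count table to the symbols of the GENCODE annotation of GRCm39. All 9 were present among the 55359 genes of the table, and all 9 were among the 16076 genes with enough counts to be tested in forebrain. The study sequenced forebrain (named hippocampus in the sample labels, and forebrain including the hippocampus in the study) and testes of male mice at postnatal day 1 to ask which genes osteocalcin regulates in each organ. The OcnGK strain was used, in which the osteocalcin genes are deleted. There were 3 forebrain libraries from WT pups of WT mothers, 3 from Ocn+/- pups of Ocn-/- mothers and 3 from Ocn-/- pups of Ocn-/- mothers. The study's forebrain heatmap lists fewer WT mice than these 3 WT libraries, all of which were used here. Against WT, the genotype of the pup, the genotype of the mother and the litter therefore cannot be told apart. Ocn-/- and Ocn+/- pups had mothers of the same genotype, and whether they were littermates was not given in the sources used here.

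The choroid plexus is a fold of tissue that hangs into the brain ventricles. Its epithelium, a continuation of the ependymal lining, secretes the cerebrospinal fluid by moving ions and water from blood to ventricle, and also releases carrier proteins and growth factors into it. In the lateral ventricle it adjoins the hippocampus. Ttr encodes transthyretin, which carries thyroid hormone and is made in large amounts by this epithelium. Otx2 encodes a homeodomain transcription factor needed for choroid plexus development. Aqp1 is the water channel of the apical membrane, Kcne2 is an accessory subunit of potassium channels, Clic6 belongs to the chloride intracellular channel family, and Cldn2 is a claudin that makes tight junctions permeable to cations and water. Folr1 is a folate receptor that brings folate into the cerebrospinal fluid, Kl encodes klotho, a coreceptor for FGF23, and Enpp2 encodes autotaxin, a secreted enzyme that makes lysophosphatidic acid.

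Total expected counts of the forebrain libraries ran from 6518151 to 14621584, with a median of 12920133, and the lowest belonged to WT 3. Levels are CPM, that is, counts relative to the TMM-normalized total of the library, and WT 3 had the only normalization factor that stood away from 1, at 0.866. The targeted gene Bglap, which encodes osteocalcin, was at 0 to 5 counts in WT, at 1 to 2 in Ocn+/- and at 0 to 1 in Ocn-/- forebrains, so that it could not check the labels in this tissue. All 10 cortex markers and all 12 hippocampus markers were above 3 counts in each forebrain library, whereas 16 markers of midbrain and hindbrain summed to 0.712 to 3.18 CPM. In these bulk samples, fewer choroid plexus cells and less RNA per cell cannot be told apart. Where other cells also express a member, their RNA cannot be told apart from that of the choroid plexus either. Sequencing batch was not given in the sources used here, and the labels do not say whether libraries of a genotype came from one litter, so p-values measure the spread between these libraries.

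All 9 genes were detected in all 9 forebrain libraries, at levels that lay far apart. Corrected for the length of the exons, Ttr had a mean of 298 RPKM (CPM per kilobase of exon). Enpp2 followed at 7.15, Aqp1 at 3.89, Kcne2 at 3.33 and Clic6 at 2.7 RPKM. Otx2 at 0.885, Cldn2 at 0.732, Folr1 at 0.683 and Kl at 0.246 RPKM were the lowest. Lengths were the union of all annotated exons, which lowers the RPKM of genes with long rarely used exons. Counts per library were 3037 to 10699 for Ttr and 385 to 1029 for Enpp2, and at the low end 14 to 47 for Kl and 9 to 49 for Cldn2. Enpp2 was the only member with a value that was not whole, that is, with reads divided among genes by RSEM. Folr1 lies across Anapc15 on the opposite strand, which had 128 to 349 counts, and the strand setting of the counting was not given in the sources used here.

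The water channel gene Aqp1 (chr6:55313068-55325540, GRCm39) was the 1 member called between Ocn-/- and WT forebrains. Its level was 15.6, 12.0 and 13.9 CPM in WT 1 to 3, 10.9, 15.3 and 13.6 CPM in Ocn+/- 1 to 3, and 6.07, 8.71 and 8.28 CPM in Ocn-/- 1 to 3. The 3 Ocn-/- libraries were below all 6 others, and Ocn+/- and WT overlapped. Aqp1 fell from 13.8 ± 1.79 CPM (SD, n = 3) in WT to 7.69 ± 1.42 CPM (SD, n = 3) in Ocn-/-, a log2 fold change of -0.85 ± 0.185 (SE; adjusted p = 0.0136, edgeR's quasi-likelihood test with Benjamini-Hochberg adjustment over all genes tested). Against Ocn+/- (13.3 ± 2.24 CPM, SD, n = 3) the log2 fold change was -0.78 ± 0.18 (SE), which was not past the threshold after adjustment (edgeR, adjusted p = 0.999). The call against WT rested on single libraries: the adjusted p of Aqp1 was 0.0584 without WT 1, 0.0541 without WT 3 and 0.0581 without Ocn-/- 1. Its log2 fold change against WT ranged from -0.95 to -0.7 with 1 library left out in turn.

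The chloride channel gene Clic6 (chr16:92282624-92338739) stood close to the threshold. It was at 13.0, 11.9 and 17.6 CPM in WT, 14.5, 16.4 and 11.4 CPM in Ocn+/- and 7.75, 11.3 and 6.77 CPM in Ocn-/- libraries. The highest Ocn-/- library, at 11.3 CPM, was just below the lowest of the 6 others, at 11.4 CPM. The log2 fold change was -0.69 ± 0.207 (SE) against WT, with an adjusted p of 0.059 in edgeR's quasi-likelihood test. DESeq2 called it (adjusted p = 0.0295), as did edgeR without Ocn-/- 2 (adjusted p = 0.0321). Against Ocn+/- the log2 fold change was -0.70 ± 0.2 (SE; edgeR, adjusted p = 0.999).

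Kcne2 (chr16:92089219-92095027) is a neighbour of Clic6 on the same chromosome. It was at 6.18, 5.87 and 6.4 CPM in WT, 7.78, 8.76 and 5.31 CPM in Ocn+/- and 5.19, 6.1 and 3.46 CPM in Ocn-/- libraries. The Ocn-/- range overlapped both others, and the lowest value was that of Ocn-/- 3. Against WT its fold change on the log2 scale was -0.32 ± 0.245 (SE; edgeR, adjusted p = 0.48) and -0.56 ± 0.233 (SE) against Ocn+/- (edgeR, adjusted p = 0.999). Of the other genes between Kcne2 and Clic6, named for their position after their values were seen, Fam243, Smim34 and Kcne1 had at most 3 counts in each forebrain library. In Ocn-/- against WT, Smim11 differed by 0.24 on the log2 scale (adjusted p = 0.703, edgeR), and Rcan1, a calcineurin regulator, by 0.16 (adjusted p = 0.315, edgeR).

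Cldn2 (chrX:138701480-138712135), the tight junction member, was at 2.9, 2.99 and 1.6 CPM in WT, 3.31, 3.72 and 2.35 CPM in Ocn+/- and 2.32, 2.01 and 1.43 CPM in Ocn-/- libraries. All 3 Ocn-/- values were below all 3 Ocn+/- values, by a narrow margin of 2.32 to 2.35 CPM, and WT 3 was among the Ocn-/- values. With 9 to 49 counts in a library, the log2 fold change of -0.43 ± 0.335 (SE) against WT (edgeR, adjusted p = 0.486) had a wide error. Against Ocn+/- it was -0.70 ± 0.316 (SE; edgeR, adjusted p = 0.999).

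**Figure D1:**
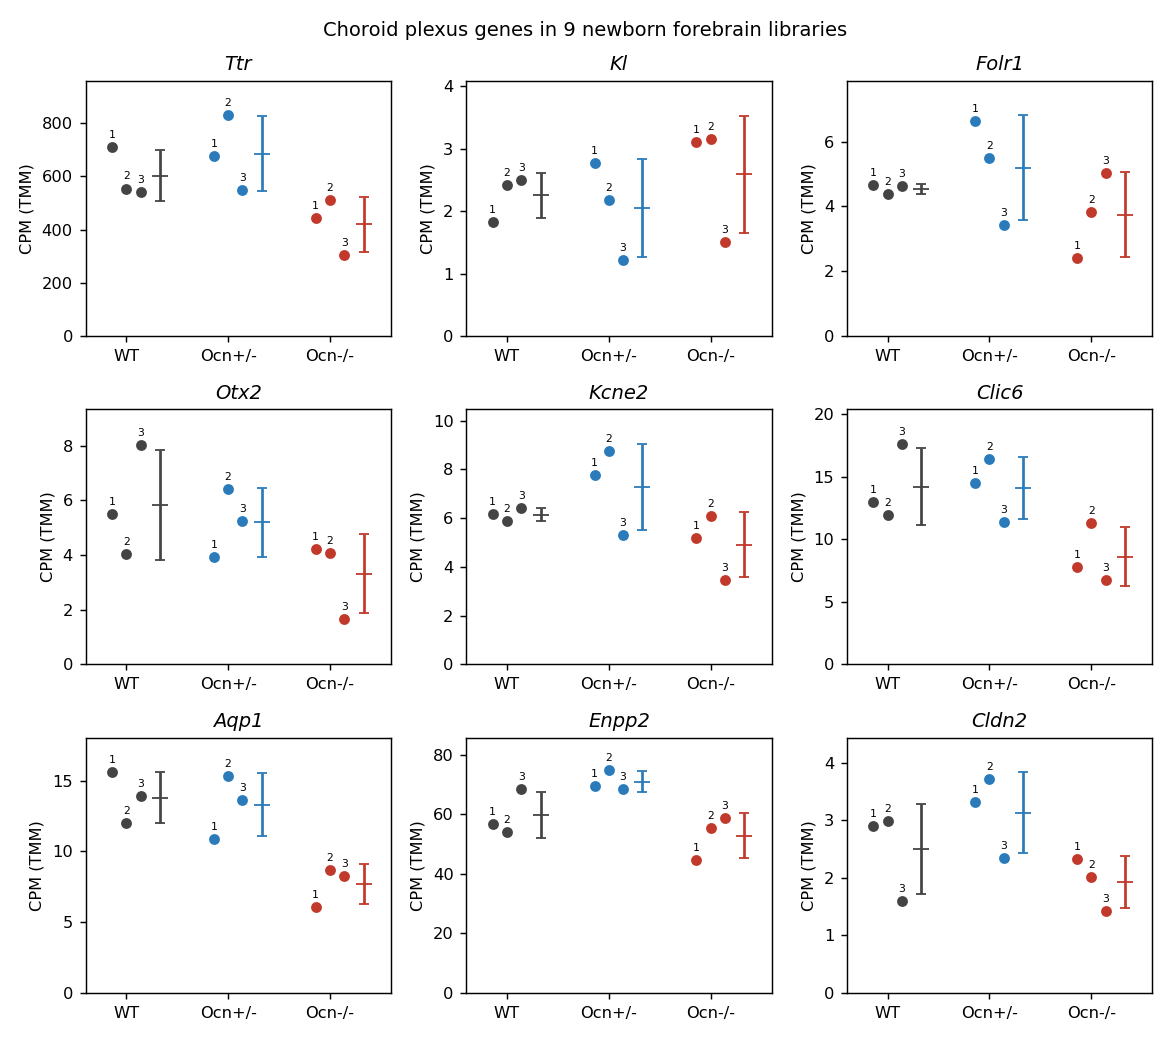
Level of the 9 choroid plexus genes in each forebrain library, in CPM after TMM normalization on linear axes that start at 0. Points are single libraries with their replicate number, and the bar beside them is the mean with its SD (n = 3). For Ttr, Clic6 and Aqp1 the 3 Ocn-/- libraries lie below the 6 others, and for Kl and Folr1 the genotypes overlap.

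Ttr (chr18:20797253-20807467), the most abundant member, was at 711, 554 and 540 CPM in WT, 675, 829 and 549 CPM in Ocn+/- and 443, 509 and 305 CPM in Ocn-/- libraries. All 3 Ocn-/- libraries were below the 6 others, and Ocn+/- and WT overlapped. Means were 602 ± 94.9 CPM in WT, 685 ± 140 CPM in Ocn+/- and 419 ± 104 CPM in Ocn-/- (SD, n = 3 each). The log2 fold change of Ocn-/- was -0.52 ± 0.236 (SE) against WT (edgeR, adjusted p = 0.258) and -0.71 ± 0.236 (SE) against Ocn+/- (edgeR, adjusted p = 0.999). Within a genotype, Ttr varied with an SD of 0.31 on the log2 scale, where its counts alone would give 0.02.

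Enpp2 (chr15:54701324-54816288), the gene of secreted autotaxin, was at 56.7, 54.1 and 68.5 CPM in WT, 69.6, 75.0 and 68.4 CPM in Ocn+/- and 44.6, 55.4 and 58.8 CPM in Ocn-/- libraries. Ocn+/- and Ocn-/- did not overlap, and WT lay across both. It had the smallest spread within a genotype, with an SD of 0.16 on the log2 scale. The log2 fold change of Ocn-/- against Ocn+/- was -0.42 ± 0.11 (SE; edgeR, adjusted p = 0.999), and those against WT were 0.26 ± 0.111 (SE) for Ocn+/- (edgeR, adjusted p = 0.199) and -0.17 ± 0.112 (SE) for Ocn-/- (edgeR, adjusted p = 0.409).

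The transcription factor gene Otx2 (chr14:48894099-48911276) was at 5.49, 4.03 and 8.01 CPM in WT, 3.92, 6.43 and 5.24 CPM in Ocn+/- and 4.23, 4.09 and 1.66 CPM in Ocn-/- libraries. Ocn-/- 3 stood below all others, and the 2 other Ocn-/- libraries were within the range of WT and Ocn+/-. The lowest and the highest library were 4.83-fold apart, the widest span of the 9 genes. Its log2 fold change was -0.78 ± 0.333 (SE) against WT (edgeR, adjusted p = 0.184) and -0.64 ± 0.322 (SE) against Ocn+/- (edgeR, adjusted p = 0.999).

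The folate receptor gene Folr1 (chr7:101507537-101520014) was at 4.65, 4.38 and 4.63 CPM in WT, 6.63, 5.5 and 3.43 CPM in Ocn+/- and 2.4, 3.82 and 5.04 CPM in Ocn-/- libraries. The genotypes overlapped: the WT values lay within 4.38 to 4.65 CPM, and each mutant genotype had values above and below them. Its log2 fold change was -0.27 ± 0.292 (SE) against WT (edgeR, adjusted p = 0.624) and -0.46 ± 0.277 (SE) against Ocn+/- (edgeR, adjusted p = 0.999).

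The klotho gene Kl (chr5:150876072-150917284) was at 1.83, 2.42 and 2.49 CPM in WT, 2.77, 2.17 and 1.21 CPM in Ocn+/- and 3.11, 3.15 and 1.51 CPM in Ocn-/- libraries. It was the 1 member whose lowest library, Ocn+/- 3, was not an Ocn-/- library, and its 2 highest values were Ocn-/- 1 and Ocn-/- 2. Its log2 fold change was 0.23 ± 0.375 (SE) against WT (edgeR, adjusted p = 0.764) and 0.34 ± 0.357 (SE) against Ocn+/- (edgeR, adjusted p = 0.999).

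Counted over the members, Ocn-/- against WT gave log2 fold changes below 0 for 8 of 9, with a median of -0.43, where the median of all genes tested was 0.006 and 49% of them were below 0. edgeR called 1 of 9, Aqp1 (DESeq2 called 2, Aqp1 and Clic6), and 4.85% of all genes tested were called in this comparison, 3.05% as lower. At an unadjusted p under 0.05, 3 of 9 were lower, against 11.3% of all genes tested. Ocn-/- values lay below all WT values for 3 of 9 (Ttr, Clic6 and Aqp1), against 13.9% of all genes tested.

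Ocn-/- against Ocn+/-, pups whose mothers had the same genotype, gave log2 fold changes below 0 for the same number of members, 8 of 9, with a median of -0.64 beside 0.003 over all genes tested, of which 49.1% were below 0. None of the 9 was called by edgeR or by DESeq2, and edgeR called 1 gene of all those tested (0.00622%). At an unadjusted p under 0.05, 6 of 9 were lower in Ocn-/- (Ttr, Kcne2, Clic6, Aqp1, Enpp2 and Cldn2), against 1.67% of all genes tested. The 3 Ocn-/- libraries were below all 3 Ocn+/- libraries for 5 of 9 (Ttr, Clic6, Aqp1, Enpp2 and Cldn2), against 4.12% of all genes tested. When no filter on low counts was applied, edgeR called 3 of 9, and it called 34 of the 28957 genes tested under that setting. The adjusted p of these 3 members was then 0.0151 for Aqp1, 0.0368 for Enpp2 and 0.0451 for Clic6 (edgeR). The comparisons of Ocn-/- with WT and with Ocn+/- share the Ocn-/- libraries. The members also varied together over the libraries, so that the counts of members in either comparison are not separate observations. They were chosen with earlier results of these data known.

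Ocn+/- against WT gave 3 of 9 log2 fold changes below 0, with a median of 0.18 beside 0.006 over all genes tested, of which 49.1% were below 0. None of the 9 was called by edgeR or DESeq2, where edgeR called 3.89% of all genes tested. At an unadjusted p under 0.05 there was 1, Enpp2, which was higher in Ocn+/-, against 20.3% of all genes tested. When WT was compared with the mean of both mutants, none of the 9 was called by edgeR or DESeq2, and edgeR called 8.68% of all genes tested. Aqp1 was the 1 member at an unadjusted p under 0.05 (lower, as 13.5% of all genes tested), with a log2 fold change of -0.46 ± 0.157 (SE; edgeR, adjusted p = 0.0745).

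**Figure D2:**
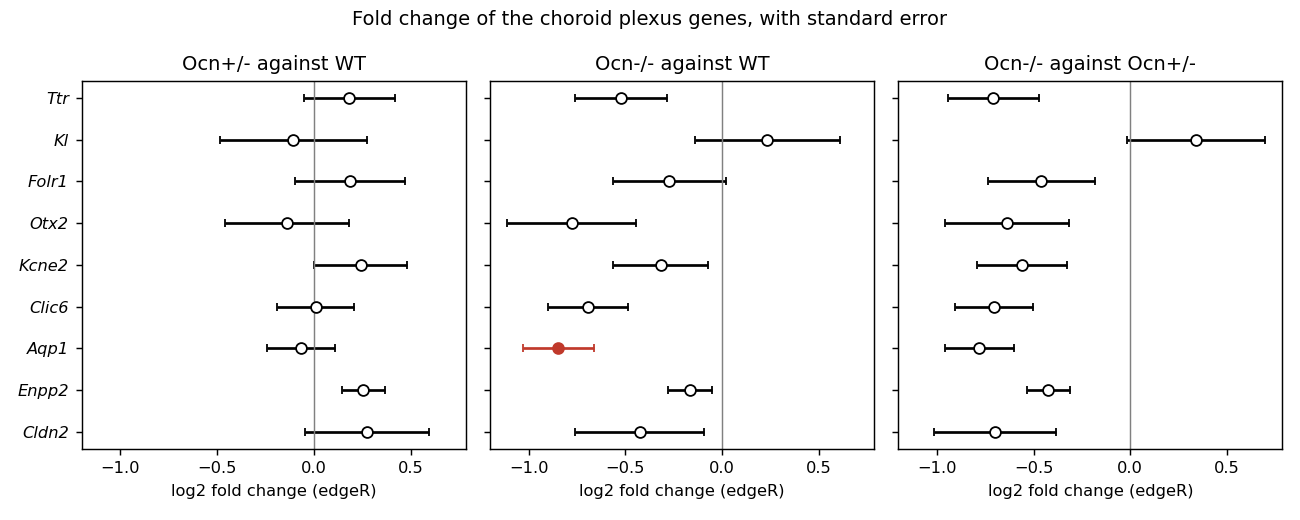
Log2 fold change of the 9 genes in 3 comparisons of forebrain genotypes, fitted by edgeR, with the standard error as a horizontal bar (n = 3 libraries per genotype). The filled point, Aqp1 in Ocn-/- against WT at -0.85, is the 1 value with an adjusted p under 0.05, and in both comparisons of Ocn-/- all members but Kl lie below 0.

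The members' levels were summarised in each library. A score, the mean of the 9 log2 levels after centring each gene on its mean over the 9 libraries, was 0.15, 0.03 and 0.19 in WT, 0.26, 0.42 and -0.07 in Ocn+/- and -0.32, -0.07 and -0.58 in Ocn-/- libraries. Ocn-/- 3 was the lowest and Ocn+/- 2 the highest, and the highest Ocn-/- value was level with the lowest Ocn+/- value. The lowest of the 9 libraries was Ocn-/- 3 for 5 of 9 members, against 9.47% of all genes tested, and an Ocn-/- library for 8 of 9, against 31.4%.

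Over the 9 libraries, which share the genotype groups and the normalization, 32 of the 36 pairs of members had a positive Pearson correlation of log2 CPM, with a median of 0.492. The closest pair was Ttr and Kcne2 at 0.929, and the ratio of Kcne2 to Ttr varied with an SD of only 0.16 on the log2 scale. Kcne2, Clic6 and Ttr followed the mean of the other members most closely, with a correlation of 0.939, 0.933 and 0.931. Aqp1 at 0.666, Otx2 at 0.663, Cldn2 at 0.597 and Enpp2 at 0.563 came next. Folr1, at 0.378, and Kl, at 0.058, followed them least. The lowest pair was Kl and Aqp1 at -0.411. The ratio of Kl to Ttr had an SD of 0.58 on the log2 scale, the widest of the 8 ratios to Ttr. Kl, Folr1, Otx2 and Cldn2 were also among the genes with the fewest counts, where the counting SD was 0.21 to 0.29 on the log2 scale.

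The 15 genes most like the members, by Pearson correlation of log2 CPM with the score over the 9 libraries, were Cd59a, Wfikkn2, Gm12992, Slc4a5, Trim56, Prps2, Mfrp, Gm7895, Dhdds, Tmem72, Gas2, Pmf1, Hdac2, A830082K12Rik and Rassf4, with correlations from 0.938 down to 0.859. Slc4a5, a sodium bicarbonate cotransporter, and Tmem72 were also on the list of other choroid plexus genes. Wfikkn2, a secreted protein that binds myostatin and GDF11, was at 14.1, 13.2 and 14.4 CPM in WT, 12.6, 14.1 and 9.34 CPM in Ocn+/- and 5.19, 8.84 and 4.89 CPM in Ocn-/- libraries. Its Ocn-/- values were below all others. It was chosen by likeness to a score that was lower in each Ocn-/- library than in WT, so that no test between genotypes is given for it. The ranking was loose at this number of libraries: 6 of the 15 were among the first 15 by Spearman correlation, and 3 to 11 when 1 library was left out.

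Of 25 other choroid plexus genes on a separate list, 24 could be tested. In Ocn-/- against WT, 21 of 24 had a log2 fold change below 0 and the median was -0.30. Car12 and Cldn1 were called, both lower, that is 2 of 24 beside 4.85% of all genes tested. At an unadjusted p under 0.05, 6 of 24 were lower, against 11.3% of all genes tested, and 6 of 24 had all Ocn-/- values below all WT values, against 13.9%. Car12, a carbonic anhydrase of the cell surface, was at 16.4, 14.2 and 19.0 CPM in WT, 11.0, 12.6 and 8.87 CPM in Ocn+/- and 10.2, 9.44 and 5.57 CPM in Ocn-/- libraries. All 6 mutant values were below all WT values, and the log2 fold change of Ocn-/- against WT was -0.96 ± 0.207 (SE; edgeR, adjusted p = 0.0126). Cldn1, another claudin, was at 14, 11.1 and 19.0 CPM in WT, 10, 10.1 and 8.0 CPM in Ocn+/- and 7.91, 7.57 and 6.85 CPM in Ocn-/- libraries, with a log2 fold change of -0.96 ± 0.193 (SE; edgeR, adjusted p = 0.00855). Cldn1 too had all mutant values below WT, and without WT 3 neither of these genes was called. In Ocn-/- against Ocn+/-, 21 of 24 were below 0 with a median of -0.32, and none was called by edgeR or DESeq2, with 2 of 24 lower at an unadjusted p under 0.05, against 1.67% of all genes tested. In Ocn+/- against WT 12 of 24 were below 0, the median was 0.01, and none was called by edgeR, where DESeq2 called 1. At an unadjusted p under 0.05 there were 3 of 24, beside 20.3% of all genes tested.

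Slc29a4, a monoamine transporter and the most abundant gene of this list, was at 114, 122 and 123 CPM in WT, 113, 122 and 121 CPM in Ocn+/- and 117, 96.8 and 129 CPM in Ocn-/- libraries. Trpm3, an ion channel gene that other brain cells express as well, was at 111, 113 and 117 CPM in WT, 112, 107 and 99.5 CPM in Ocn+/- and 107, 117 and 103 CPM in Ocn-/- libraries, and for both genes all genotypes overlapped. The mean centred level of the list correlated with the members' score at a Pearson r of 0.91 (Spearman's rho 0.86) over the 9 libraries. Without Ocn-/- 3 and Ocn+/- 2, the libraries farthest from the median score, r was 0.95, and over deviations from the genotype means it was 0.79. This is a description, since the libraries share genotype and normalization.

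**Figure D3:**
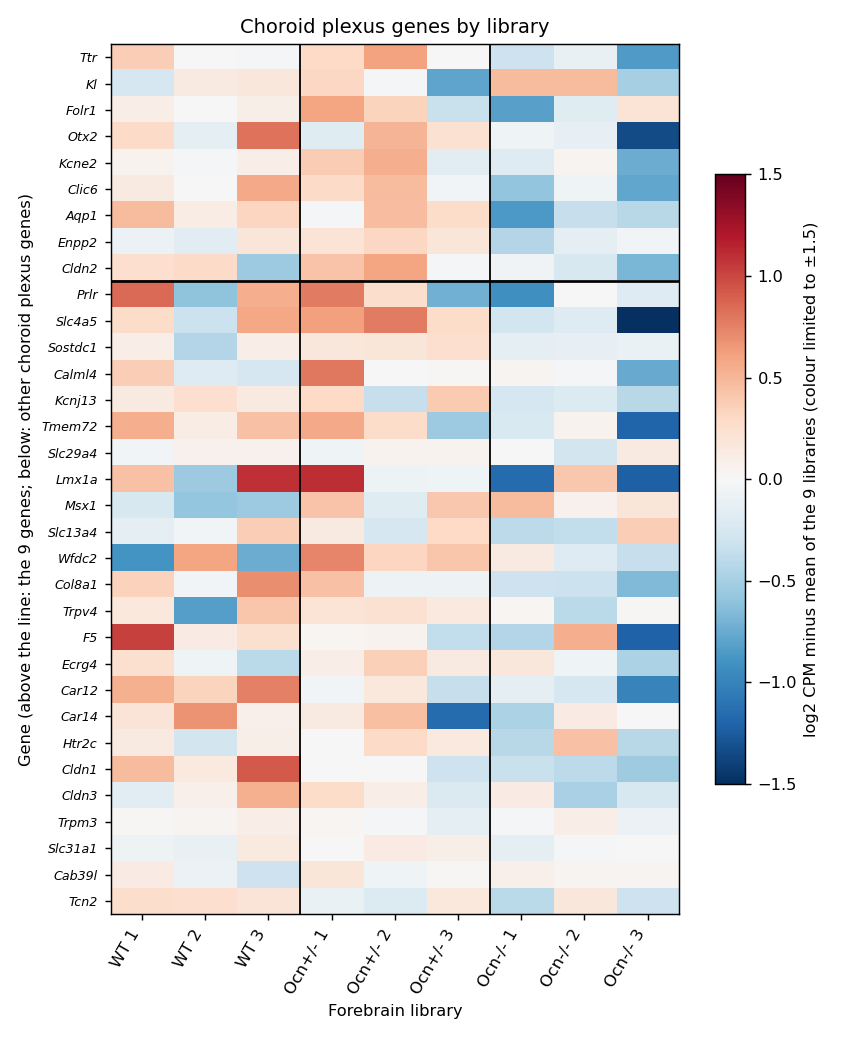
Level of the 9 choroid plexus genes (above the horizontal line) and of 24 other choroid plexus genes (below it) in each forebrain library, as log2 CPM minus the mean of the gene over the 9 libraries. Colours stop at ±1.5, and vertical lines separate the genotypes. Ocn-/- 3 is the lowest library for 5 of the 9 and for 11 of the 24 genes, whereas Kl is high in Ocn-/- 1 and 2.

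Genes that work beside the members were counted on lists of their own. On the list of ion and water transport genes of cerebrospinal fluid secretion, 18 of 18 could be tested, of which 3 were called in Ocn-/- against WT, beside 4.85% of all genes tested. The median on the log2 scale was -0.18. Slc12a2, the sodium potassium chloride cotransporter, fell (log2 fold change -0.41, adjusted p = 0.0209, edgeR), and Clcn2, a chloride channel named after its values were seen, fell as well (log2 fold change -0.45, adjusted p = 0.0394, edgeR). Atp1b1, a subunit of the sodium pump, rose (log2 fold change 0.34, adjusted p = 0.0167, edgeR). Of the 18, edgeR called 3 in Ocn+/- against WT, beside 3.89% of all genes tested. It called 7 in both mutants against WT, beside 8.68%. The median of these 18 genes was -0.04 between Ocn-/- and Ocn+/-, where the members had -0.64, and none was called there by edgeR or DESeq2, with 0 at an unadjusted p under 0.05. These genes are also expressed by neurons and glia, and the list correlated with the members' score at an r of 0.62 (0.76 without Ocn-/- 3 and Ocn+/- 2, and 0.54 over deviations from the genotype means).

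A list of ligands, receptors and partners of the members held 31 genes, of which 28 could be tested. It covers retinol and thyroid hormone carriers and receptors, FGF23 and its receptors, folate carriers and enzymes, and receptors for lysophosphatidic acid. None was called in Ocn-/- against WT by edgeR, and DESeq2 called 1. At an unadjusted p under 0.05 there were 5 of 28, 1 of them lower, beside 21.7% of all genes tested. The median log2 fold change was 0.02. Mthfd1l, a mitochondrial enzyme of folate metabolism, was the 1 gene of 28 called in Ocn+/- against WT, beside 3.89% of all genes tested. It was higher by 0.76 on the log2 scale (adjusted p = 0.0313, edgeR).

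Markers of neighbouring cells were measured in the same libraries. Of 17 ependymal and multiciliated cell genes, 15 could be tested, none was called by edgeR or DESeq2 in any of the 4 forebrain comparisons, with 0 to 2 at an unadjusted p under 0.05. Their median log2 fold change in Ocn-/- was 0.25 against WT and -0.07 against Ocn+/-. Their summed level was 56.6 to 60.8 CPM in WT, 62.2 to 68.3 in Ocn+/- and 54.7 to 71.0 in Ocn-/-, and r with the members' score was 0.21 (-0.25 without Ocn-/- 3 and Ocn+/- 2, and 0.50 over deviations from the genotype means). Foxj1, the master regulator of motile cilia, was at 11.4, 10.1 and 9.07 CPM in WT, 13.9, 13.5 and 14.6 CPM in Ocn+/- and 11.1, 13.7 and 12.0 CPM in Ocn-/- libraries. All 3 Ocn+/- values were above all WT values, and Ocn-/- overlapped WT.

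Genes of the cortical hem, the embryonic border tissue next to the choroid plexus, and of its Cajal-Retzius neurons had a median of -0.12 on the log2 scale over the 14 genes tested in Ocn-/- against WT. They summed to 680 to 809 CPM in WT, 646 to 682 in Ocn+/- and 597 to 639 in Ocn-/-, and Reln alone had a mean of 498 CPM over the 9 libraries. Their mean centred log2 level, in which each gene counts alike, was -0.01, -0.18 and 0.34 in WT, 0.28, -0.14 and 0.03 in Ocn+/- and -0.17, 0.02 and -0.18 in Ocn-/- libraries, with all genotypes overlapping. Its r with the members' score was 0.47, 0.73 without Ocn-/- 3 and Ocn+/- 2, and 0.26 over deviations from the genotype means. Reln, the reelin gene of Cajal-Retzius cells, was the 1 of 14 called (log2 fold change -0.34, adjusted p = 0.0195, edgeR), beside 4.85% of all genes tested. One of the cortical hem genes, Lmx1a, is on the list of other choroid plexus genes as well. The 16 meningeal fibroblast genes summed to 1100 to 1220 CPM in WT, 988 to 1230 in Ocn+/- and 733 to 1400 in Ocn-/-, none was called by edgeR or DESeq2 in Ocn-/- against WT, with 2 at an unadjusted p under 0.05 (21.7% of all genes tested), and r with the members' score was -0.10. This r turned to 0.63 without Ocn-/- 3 and Ocn+/- 2, and was -0.68 over deviations from the genotype means. The 12 hippocampus markers summed to 1130 to 1230 CPM in WT, 1040 to 1230 in Ocn+/- and 1140 to 1230 in Ocn-/-, with a median of -0.01 on the log2 scale in Ocn-/- against WT and none called by edgeR or DESeq2, with 2 at an unadjusted p under 0.05 (21.7% of all genes tested). The part of tissue composition in the members' levels was not tested.

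**Figure D4:**
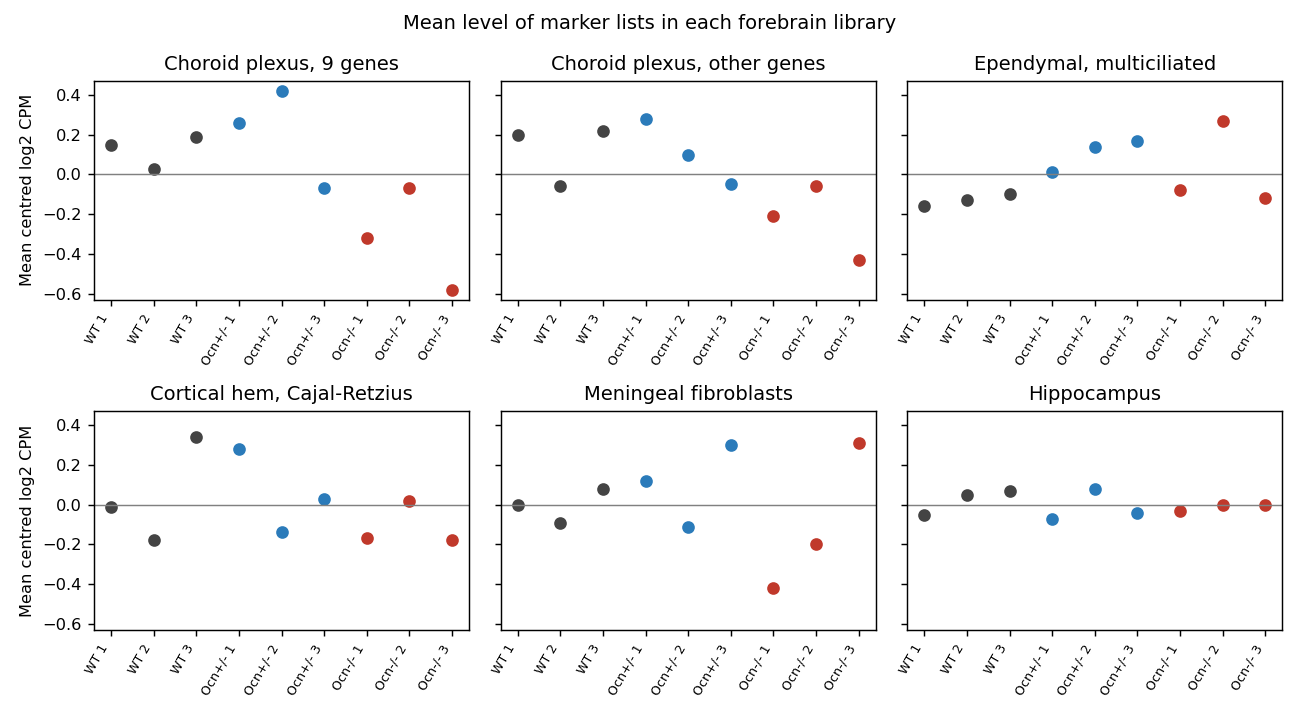
Mean centred log2 CPM of 6 marker lists in each forebrain library, grey for WT, blue for Ocn+/- and red for Ocn-/-, on one vertical scale. The 9 choroid plexus genes and the other choroid plexus genes are lowest in Ocn-/- 3 (-0.58 for the 9 genes), whereas in the meningeal fibroblast list Ocn-/- 1 is lowest and Ocn-/- 3 highest.

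The members' score was also entered as a covariate in the forebrain fit, to count the calls over the 16067 genes outside the members. In Ocn-/- against WT edgeR called 779 of these genes without the score and 309 with it, of which 204 were shared. In Ocn+/- against WT it called 625 without and 833 with the score, of which 610 were shared. The score was lower in Ocn-/- than in WT libraries and therefore takes up part of the genotype difference in the first comparison by construction, so that members' level and genotype cannot be told apart there.

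The testes of the same study (2 WT, 3 Ocn+/- and 3 Ocn-/- libraries) show where else the members were expressed. Levels in this comparison were normalized over both tissues together and are on another scale than the forebrain CPM above. In a joint fit of all 17 libraries, 8 of 9 were called between testes and forebrain, where 84.4% of all genes tested were called. Ttr was at 0 to 5 counts in the testes, with a mean of 0.299 ± 0.176 CPM (SD, n = 8) against 632 ± 172 CPM (SD, n = 9) in forebrain, a log2 fold change of -10.95 ± 0.242 (SE; edgeR, adjusted p = 1.13e-16). Kcne2 was at 0 to 5 counts (log2 fold change -4.94 ± 0.352, SE), and Otx2 was at 0 to 4 counts in all testes but Ocn-/- 3, which had 20 (log2 fold change -4.09 ± 0.591, SE). These 3 genes were close to undetected in testes. With 1 library left out in turn, the log2 fold change ranged from -6.06 to -3.89 for Otx2 and from -6.06 to -4.75 for Kcne2. Clic6 and Enpp2 were lower in testes, with log2 fold changes of -1.06 and -0.97, and Kl, at -0.55, was not called (edgeR, adjusted p = 0.0696). Folr1, Aqp1 and Cldn2 were higher in testes, with log2 fold changes of 2.42, 0.62 and 0.64, so that they were not limited to the brain among the tissues measured. The calls of the smallest differences rested on single libraries: Cldn2 was not called without testis WT 2 (edgeR, adjusted p = 0.1) or testis Ocn-/- 2 (0.0523), and Kl was called without testis WT 2 (0.00677), forebrain Ocn-/- 3 (0.0305) or forebrain Ocn+/- 3 (0.0318).

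The difference between both mutant genotypes and WT was compared between the tissues by an interaction term. edgeR and DESeq2 called none of the 9, none had an unadjusted p under 0.05 with edgeR, and edgeR called 2.96% of all genes tested. For Aqp1, which was at 28.4 ± 1.4 CPM in WT (SD, n = 2), 16.6 ± 1.0 CPM in Ocn+/- (SD, n = 3) and 15 ± 4.37 CPM in Ocn-/- testes (SD, n = 3), the term, the difference in forebrain minus that in testes, was 0.40 ± 0.257 (SE, log2; edgeR, adjusted p = 0.425).

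The promoters of 3 members are shown, since Aqp1 was called, Clic6 was next to the threshold and Kcne2 followed Ttr most closely. Each is the 250 bases before the start of the canonical transcript, read from GRCm39 on the strand of the gene, at chr6:55312818-55313067 for Aqp1, chr16:92294752-92295001 for Clic6 and chr16:92088969-92089218 for Kcne2, all on the plus strand. Capitals mark the letters TAATC, or GATTA where they lie on the other strand.
Aqp1: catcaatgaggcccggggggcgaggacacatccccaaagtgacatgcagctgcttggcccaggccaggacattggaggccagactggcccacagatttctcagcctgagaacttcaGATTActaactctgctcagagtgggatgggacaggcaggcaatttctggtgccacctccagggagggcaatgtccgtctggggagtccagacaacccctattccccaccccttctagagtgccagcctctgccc
Clic6: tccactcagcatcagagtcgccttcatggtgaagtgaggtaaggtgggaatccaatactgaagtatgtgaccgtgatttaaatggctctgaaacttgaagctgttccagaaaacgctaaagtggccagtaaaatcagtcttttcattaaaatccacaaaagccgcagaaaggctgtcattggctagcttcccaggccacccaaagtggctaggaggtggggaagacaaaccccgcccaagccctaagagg
Kcne2: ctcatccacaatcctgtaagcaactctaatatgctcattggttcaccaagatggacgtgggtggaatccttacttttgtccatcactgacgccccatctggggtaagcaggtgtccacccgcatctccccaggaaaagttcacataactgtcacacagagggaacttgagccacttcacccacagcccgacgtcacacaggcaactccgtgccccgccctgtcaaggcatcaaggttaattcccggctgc

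Homeodomain factors of the bicoid class, to which OTX2 belongs, are known to bind sites built around the word TAATCC. This word was in none of the 9 members' promoters of this length on either strand, where 7.0% of 21770 promoters of protein-coding genes hold it. The shorter TAATC, a part of that word that was added after the longer word gave no match, was in 1 of 9, Aqp1, 134 bases before the start, where 20.4% of all promoters hold it.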

How the data were processed

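The authors trimmed reads with Trim Galore 0.6.6, aligned them to GRCm39 with STAR 2.7.8a and counted them per gene with RSEM 1.3.3, per the submitters' processing notes and the study's methods. The deposited unit is RSEM's expected count without normalization, which was rounded here. Symbols came from GENCODE on GRCm39, which held 54749 of the 55359 identifiers. R 4.3.3 with edgeR 4.0.16 (TMM, filterByExpr, robust quasi-likelihood tests, all 3 forebrain genotypes in one fit, no covariate) gave log2 fold changes. Standard errors are the log2 fold change divided by the square root of the F statistic. Genes were called at a two-sided Benjamini-Hochberg adjusted p under 0.05 over all genes tested. DESeq2 1.42.0 was an alternative. Log2 CPM used a prior count of 2. The fit was tested on simulated data.

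All 9 members are named, with at most 5 genes of each other list but the endothelial one (called genes first, by p, then by mean CPM) and the 15 genes of at least 1 mean CPM most like the members. Of the endothelial list all genes are named. The members, the 19 lists and the tests were chosen with earlier results of these data known. Libraries of the same replicate number deviated together weakly or not at all (r from -0.037 to 0.146 over 9 pairs). Libraries of different numbers reached 0.105. The labels do not say that the numbers pair the libraries, so no pairing was used. Depth ran from 6518151 to 14621584 counts in forebrain and from 7302401 to 8289015 in testes.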

Additional observations from a re-analysis of the deposited data

How the results depend on the processing

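In the comparisons of Ocn-/- with WT and with Ocn+/-, the log2 fold change of each member kept its direction under the 8 alternatives and with each of the 9 forebrain libraries left out, except that Cldn2 could not be tested with at least 10 counts in every library. Between Ocn+/- and WT and between both mutant genotypes and WT, several values were close to 0 and changed sign. The limits are 3 libraries per genotype, low counts for Kl, Cldn2, Otx2 and Folr1, and the depth of WT 3. A fit that leaves out a library assumes that the rest vary alike. Causes of the changes below were not tested.

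With library size alone, 369 genes were called in Ocn+/- against WT and 2 in Ocn-/- against Ocn+/-, and the log2 fold change was 0.01 for Aqp1 in Ocn+/- against WT and 0.04 for Folr1 and 0.05 for Kcne2 in both mutants against WT. DESeq2 called 2 members and 1142 genes in Ocn-/- against WT, 1 other choroid plexus gene in Ocn+/- against WT, and 5 genes in Ocn-/- against Ocn+/-. The likelihood ratio test called 944 genes and 1 other choroid plexus gene in Ocn+/- against WT, 2 members in Ocn-/- against WT, and 5 genes in Ocn-/- against Ocn+/-. Without a filter on low counts, 1265 genes and 2 other choroid plexus genes were called in Ocn+/- against WT, 1502 genes, 4 other choroid plexus genes and 2 members in Ocn-/- against WT, and 34 genes and 3 members in Ocn-/- against Ocn+/-. A minimum of 10 counts in every library, and a fit of only the compared groups, each called 0 genes in Ocn-/- against Ocn+/-. The fit of only the compared groups called 1 other choroid plexus gene in Ocn+/- against WT. With the members' score as a covariate, 309 genes outside the members were called in Ocn-/- against WT. By Spearman correlation, 6 of the 15 genes most like the members were shared.

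With the replicate number as a block, 3 members (Aqp1, Ttr with an adjusted p of 0.0212 and Clic6 with 0.044, edgeR) and 1140 genes were called in Ocn-/- against WT, and the log2 fold change of Clic6 in Ocn+/- against WT was 0.00, on the other side of 0. The labels do not say that these numbers pair the libraries, and whether they do was not settled.

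With 1 library left out in turn, Ocn+/- against WT called 183 to 830 genes and 0 to 1 other choroid plexus genes. Ocn-/- against WT called 189 to 919 genes, 0 to 3 other choroid plexus genes and 0 to 2 members (0 without WT 1, WT 3 or Ocn-/- 1, and 2 without Ocn-/- 2). Both mutants against WT called 320 to 1527 genes and 0 to 2 other choroid plexus genes, and Ocn-/- against Ocn+/- called 1 to 2 genes. The lowest counts against WT were those without WT 3. Of the 15 genes most like the members, 3 to 11 were shared. The log2 fold change in Ocn+/- against WT ranged from -0.39 to 0.17 for Kl, -0.03 to 0.42 for Folr1, -0.35 to 0.11 for Otx2, -0.11 to 0.17 for Clic6 and -0.18 to 0.06 for Aqp1. In both mutants against WT it ranged from -0.09 to 0.20 for Kl, -0.18 to 0.07 for Folr1, -0.13 to 0.06 for Kcne2, -0.02 to 0.15 for Enpp2 and -0.26 to 0.05 for Cldn2. The interaction ranged from -0.37 to 0.94 for Ttr, -1.64 to 0.30 for Kl, -0.11 to 3.16 for Otx2 and -0.77 to 0.01 for Clic6.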

Other observations

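Lists of other brain regions and cell types were measured in the same forebrain libraries. Of 11 endothelial genes, edgeR called 5 lower in Ocn+/- and 4 lower in Ocn-/- against WT, beside 3.89% and 4.85% of all genes tested, and their summed level was 304 to 365 CPM in WT, 219 to 258 in Ocn+/- and 221 to 276 in Ocn-/-. Slc2a1, the glucose transporter of brain vessels, Flt1 and Kdr, receptors for VEGF, and Ly6c1 were called in both, and Pecam1 in Ocn+/-. The list as a whole did not move one way: 6 of 11 were below 0 in Ocn+/- and 8 of 11 in Ocn-/- against WT, with medians of -0.31 and -0.49 on the log2 scale. Of the endothelial genes that were not called, the junction genes Cdh5 and Cldn5 were at 0.10 and 0.20 in Ocn+/- and -0.04 and 0.35 in Ocn-/-, Tek at 0.15 and 0.13, and Plvap at 0.28 and 0.31, on the log2 scale against WT. Esm1 was at 0.54 in Ocn+/- and -1.60 in Ocn-/-, and Esam, at -0.31 and -0.17, was below 0 in both. The r of this list with the members' score over the 9 libraries was 0.24, but 0.63 without Ocn-/- 3 and Ocn+/- 2 and -0.69 over deviations from the genotype means. Erythroid genes summed to 523 to 723 CPM in WT, 357 to 408 in Ocn+/- and 487 to 599 in Ocn-/-, with an r of -0.06 (0.17 without these libraries, and 0.08 over deviations).

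Hypothalamus markers were scarce, at 6.15 to 37.1 CPM summed over 12 genes, and were lowest in Ocn-/- 1. All 5 that could be tested were below 0 in Ocn-/- against WT, with a median of -0.94 on the log2 scale, and none was called by edgeR or DESeq2, with 0 at an unadjusted p under 0.05. Their r with the members' score was 0.53, 0.95 without Ocn-/- 3 and Ocn+/- 2, and 0.17 over deviations from the genotype means. Olfactory bulb markers summed to 143 to 163 CPM in WT, 245 to 305 in Ocn+/- and 127 to 229 in Ocn-/-, with an r of 0.18 with the members' score (0.38 without these libraries, and -0.08 over deviations). In Ocn-/- against Ocn+/- all 10 were below 0, with a median of -0.53, and none was called by edgeR or DESeq2, with 4 of 10 lower at an unadjusted p under 0.05, beside 1.67% of all genes tested. In Ocn+/- against WT 8 of 10 were higher at an unadjusted p under 0.05, where 20.3% of all genes tested passed it in either direction. edgeR called 1 of these 10, Calb2 (log2 fold change 1.10, adjusted p = 0.0101), beside 3.89% of all genes tested. Thalamus and habenula markers had a median of -0.71 on the log2 scale in Ocn-/- against Ocn+/-, with none of 8 called by edgeR, 2 lower at an unadjusted p under 0.05 (1.67% of all genes tested) and 1 called by DESeq2, and an r of 0.44 with the members' score (0.23 without these libraries, and -0.05 over deviations).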
